A study of Rattus norvegicus with 23 samples.

Results

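The genes described here are 10 chemokines that attract lymphocytes, eosinophils, dendritic cells or patrolling monocytes rather than the neutrophils of acute inflammation: Ccl17, Ccl22 and Ccl24 of type 2 immunity, Ccl20 and Ccl28 of mucosal surfaces, Ccl19, Ccl21, Cxcl12 and Cxcl13 of resting lymphoid tissue and stroma, and the membrane-bound Cx3cl1. They were taken by gene name from the array annotation. All 10 were on the array, with 15 probes on 25 spots, and all 10 were among the 23029 genes tested.

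Lung RNA was measured on single-colour rat arrays in male F344 rats that were 19 months old when exposure began. The exposed rats had inhaled a nanostructured TiO2 aerosol at 10 mg/m3, nose only, for 6 h a day on 5 days a week over 4 weeks, and the control rats had inhaled filtered air in the same way. Lungs were taken when exposure ended (D0) or 28 days later (D28), with 1 rat per array: 6 controls and 5 exposed rats at D0, 6 of each at D28. RNA came from the whole accessory lobe, so that fewer cells of a type and less RNA per cell cannot be told apart. All 8 markers of type II pneumocytes, Sftpc among them, and all 6 of type I pneumocytes were well above background on every array, as were 6 of 8 airway secretory markers, Scgb1a1 among them, whereas Muc5b was on 4 arrays and Muc5ac on 0. Of 6 thymus genes Rag1, Rag2 and Dntt were well above background on 0 arrays, Themis on 10, and Ptcra and Cd1d1 on all 23. Levels are normalized log2 signals, differences are log2 differences from a limma model of all 23 arrays, and a gene was called differentially expressed (DEG) at a Benjamini-Hochberg adjusted p below 0.05 with a fold change (FC) of at least 1.5. Precision is limited by how many arrays each group has.

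Chemokines are small secreted proteins that bind G protein-coupled receptors and set the direction in which white blood cells move. Ccl17 and Ccl22 share the receptor Ccr4 of T helper 2 and regulatory T cells, and are made largely by dendritic cells and macrophages. Ccl24 binds Ccr3 of eosinophils, Ccl20 binds Ccr6 of T helper 17 cells and B cells, and Ccl28, a product of mucosal epithelium, binds Ccr10 of cells that secrete IgA. Ccl19 and Ccl21 guide cells that carry Ccr7 into T cell zones, Cxcl13 guides cells that carry Cxcr5 into B cell follicles, and Cxcl12 holds cells that carry Cxcr4 in place. Cx3cl1 sits on endothelium and epithelium until the proteases Adam10 and Adam17 release it, and binds Cx3cr1 of monocytes and macrophages.

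Each value below is the brightness of a spot of 60-base DNA, so the sequences of the probes that the results turn on are shown in part, 30 bases each, 5′ to 3′, as the array files give them. The array files place them on the rn4 build. Capitals mark a run of a single base at the 3′ end of the probe or, in the Ccl20 probes, the base at which they differ. Exon annotation of the positions was not used here.
Cx3cl1, bases 31 to 60, chr19:10667029-10667088, minus strand: tcccgcgcctcgtgggccaaaacaatctga
Ccl28, bases 31 to 60, chr2:51712432-51712491, plus strand: agtgtcctcaaaggcctgtgtgtaTTTTTT
Ccl22, pair of probes, bases 31 to 60, chr19:10697623-10697682, minus strand: acaacagtgccccagggtggggaaataaat
Ccl22, the third probe, bases 31 to 60, chr19:10697318-10697377, minus strand: gaaaataaatgctcgtcaatagtgAAAAAA
Ccl20, first probe, bases 1 to 30, chr9:82443355-82443414, plus strand: gcttagtaGaaggttcaatattatgtttaa
Ccl20, second probe, bases 1 to 30, chr9:82443354-82443413, plus strand: cgcttagtaAaaggttcaatattatgttta
Cxcl12, probe across a gap, bases 31 to 60, chr4:153508808-153511366, plus strand: gccttaaacaaggggcgcagagaagAAAAA
Cxcl12, probe of the other RefSeq transcript, bases 31 to 60, chr4:153510285-153510344, plus strand: tatttacctgaaataaaatctactagttgt
Cxcl12, the third probe, bases 31 to 60, chr4:153516205-153516264, plus strand: ctgtctcccagataatgtgaaaatggtcca
Ccl24, bases 31 to 60, chr12:22258301-22258360, plus strand: gttcgtttcccctttctcagcatttctttt

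On D0, Cx3cl1 was over-expressed in the exposed lungs 1.80-fold, and it was the only one of the 10 genes past both thresholds. Across all genes 412 of 23029 (1.79%) were called on that day, so 1 of 10 is a small count in itself. The direction over the 10 genes was even, with 5 positive and 5 negative differences and a median of 0.0055, against 49.9% positive differences over all genes. Unadjusted p was below 0.05 for 4 of the 10 genes (Cx3cl1, Ccl17, Ccl28 and Ccl22, all positive), where it was for 11.9% of all genes. On D28 the only call was Ccl28, with a higher signal in exposed lungs, where 174 of 23029 genes (0.756%) were called. There 4 of the 10 differences were positive, with a median of -0.023, against 48.8% positive over all genes.

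**Figure D1:**
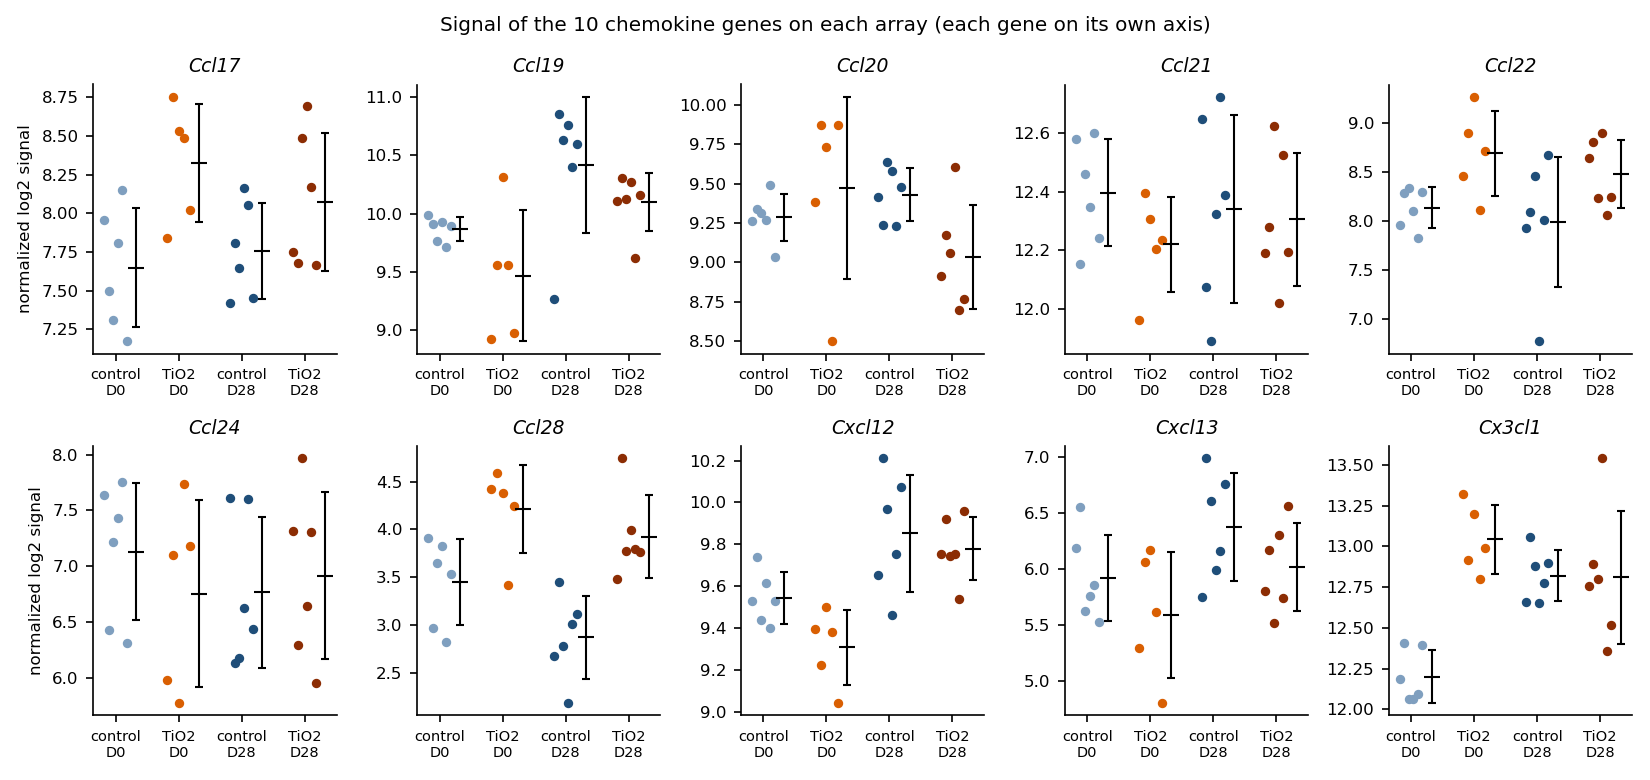
Normalized log2 signal of each of the 10 genes on every array (points) in the 4 groups, with the mean and SD of the group beside them in black; each gene has its own vertical axis. The 5 exposed arrays of D0 lie above all 6 control arrays of D0 for Cx3cl1, and the 6 exposed arrays of D28 lie above all 6 control arrays of D28 for Ccl28.

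Cx3cl1 (fractalkine) was measured by a probe printed on 10 spots of each array, whose log2 values had a median SD of 0.032 within an array. Its signals in the 5 exposed rats of D0 were 13.32, 12.92, 13.20, 12.80 and 12.99. In the 6 control rats of D0 they ran from 12.06 over a median of 12.14 to 12.41. The groups did not overlap, which held for 1.94% of all genes in this direction. The log2 difference was 0.84 (standard error 0.16, 95% interval 0.52 to 1.17, limma adjusted p = 0.00344). Within each of the 4 slides that held both groups it was positive, between 0.66 and 0.91. It remained past both thresholds in all 13 alternative ways of processing or fitting, with differences from 0.82 to 0.87, and in all 23 fits that left out 1 array, with differences from 0.78 to 0.91.

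On D28 the picture for Cx3cl1 was different in both groups. The control rats ran from 12.65 over 12.83 to 13.06, and the exposed rats from 12.36 over 12.78 to 13.54, so that the exposed arrays enclosed the controls. The difference was -0.0094 (95% interval -0.32 to 0.30, adjusted p = 0.994), an interval of 0.80 to 1.23 as a ratio of exposed to control. The difference between the effects of the days was -0.85 (standard error 0.22, unadjusted p = 0.000706), but its adjusted p was 0.397. None of the 10 genes was called by limma for this contrast, where 7 of 23029 genes (0.0304%) were, and unadjusted p was below 0.05 for 2 of the 10 (Cx3cl1 and Ccl20), where it was for 3.44% of all genes. Without replicate 4 of the exposed rats of D28, the array at 13.54, the difference between the effects was -0.9997 (adjusted p = 0.0149). It was called in only 1 of the 23 fits that left out 1 array, with adjusted p up to 0.708.

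The level of Cx3cl1 in control lungs was itself higher on D28 than on D0, by 0.62 (standard error 0.15, adjusted p = 0.0490), and all 6 control arrays of D28 lay above all 6 of D0. Of all genes 140 of 23029 (0.608%) were called in this comparison, and 1.02% had all control arrays of D28 above those of D0. Within the 3 slides that held controls of both days the difference was between 0.50 and 0.58. This call was at the edge of the threshold and was kept in 6 of 23 fits that left out 1 array, with adjusted p up to 0.128 and differences from 0.57 to 0.66. It was lost with the slide as a fixed or random block and with the replicate block. It shares the control arrays with both comparisons of exposed and control rats. In order of mean level the groups were control D0 (12.20 ± 0.16, SD, n = 6), exposed D28 (12.81 ± 0.41, n = 6), control D28 (12.82 ± 0.15, n = 6) and exposed D0 (13.04 ± 0.21, n = 5). The arrays of neighbouring groups overlapped at every step of this order. Between the days the exposed rats differed by -0.23 (95% interval -0.56 to 0.09, adjusted p = 0.779). As the mean of both days the difference between exposed and control rats was 0.42 (adjusted p = 0.0196), below the FC limit.

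**Figure D2:**
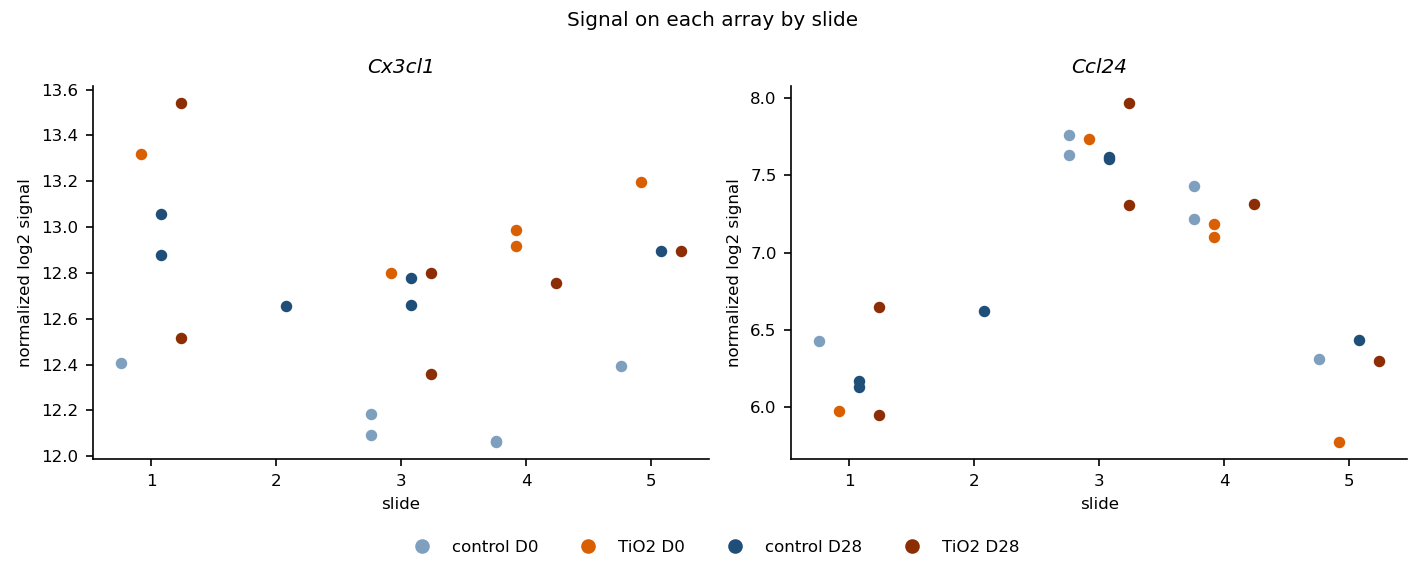
Normalized log2 signal of Cx3cl1 (left) and Ccl24 (right) on each array, by the slide that carried the array, with a colour for each group. On slides 1, 3, 4 and 5 the exposed arrays of D0 lie above the control arrays of D0 for Cx3cl1, whereas Ccl24 differs by slide, with all 12 arrays of slides 3 and 4 at 7.10 or more and the other 11 at 6.65 or less.

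The genes whose signals followed Cx3cl1 most closely over the 23 arrays were Slc13a2 (Pearson r = 0.86), Rcc2 (0.86) and Tmem171 (0.84), and with the group means taken out r was 0.65, 0.70 and 0.73. These correlations describe arrays that share groups and slides. The proteases that release Cx3cl1 were well above background on all arrays and were not called on either day, with differences of 0.13 on D0 and -0.27 on D28 for Adam10 and of 0.08 and 0.11 for Adam17. Its receptor Cx3cr1 varied more within groups than any other receptor listed here, with SDs from 0.83 to 1.06, and the differences were 0.05 on D0 and 0.24 on D28 (adjusted p = 0.996 and 0.940). Blood endothelium, a source of Cx3cl1, had lower marker levels in exposed rats on D0: 0 of 8 markers had a positive difference, none was called and 3 had an unadjusted p below 0.05 by limma, the median was -0.20, and the mean of the 8 ran from 11.60 to 11.79 in exposed and from 11.91 to 12.05 in control rats. For the 8 markers of type II pneumocytes it ran from 14.74 to 14.98 in exposed and from 14.56 to 14.67 in control rats, with a median difference of 0.24, no call by limma and an unadjusted p below 0.05 for 5 of 8. The same 2 lists on D28, when Cx3cl1 was not called, had positive differences for 1 of 8 endothelial and 7 of 8 type II markers. Their medians on D28 were -0.19 and 0.19. Other epithelial markers went mostly the other way on D0. Positive differences were seen for 0 of 6 type I pneumocyte, 0 of 6 ciliated and 3 of 7 airway secretory markers. Medians of these lists on D0 were -0.27, -0.29 and -0.16. The part of any of these cell types in the Cx3cl1 result was not tested.

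Ccl28 had a higher signal in exposed lungs on D28, close to the detection limit of its probe. Its spot was well above background on 6 of 23 arrays, namely on 1 of 6 control and 4 of 5 exposed arrays of D0 and on 0 of 6 control and 1 of 6 exposed arrays of D28. The signals on D28 ran from 3.48 over 3.78 to 4.74 in exposed rats and from 2.18 over 2.90 to 3.45 in control rats. The groups did not overlap, which held for 0.682% of all genes in this direction. The difference was 1.06 (standard error 0.25, adjusted p = 0.0364). This is a difference between signals near background: 0 of 6 control and 1 of 6 exposed arrays were well above it, so no fold change is given.

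On D0 the Ccl28 signals in exposed rats were 4.43, 4.59, 4.39, 3.42 and 4.24. The controls of D0 ran from 2.82 over 3.59 to 3.91, and 4 of the 5 exposed arrays lay above all of them. The difference was 0.76 (95% interval 0.22 to 1.31), with an adjusted p of 0.148. Averaged over both days the difference was 0.91 (standard error 0.18, adjusted p = 0.00290), and it was called in all 23 fits that left out 1 array (0.83 to 1.01) and in 10 of 12 other settings. It was not called with normexp background correction (0.16) or in the deposited table (0.27), both below the FC limit. In that contrast 430 of 23029 genes (1.87%) were called, and Ccl28 was the only one of the 10. The call on D28 was kept in 15 of 23 fits that left out 1 array (adjusted p from 0.0209 to 0.0797) and in 5 of 13 other settings. It was lost without replicate 1, 3, 4 or 5 of the controls or replicate 2, 4, 5 or 6 of the exposed rats of D28, and the difference was 0.18 with normexp background correction and 0.26 in the deposited table.

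**Figure D3:**
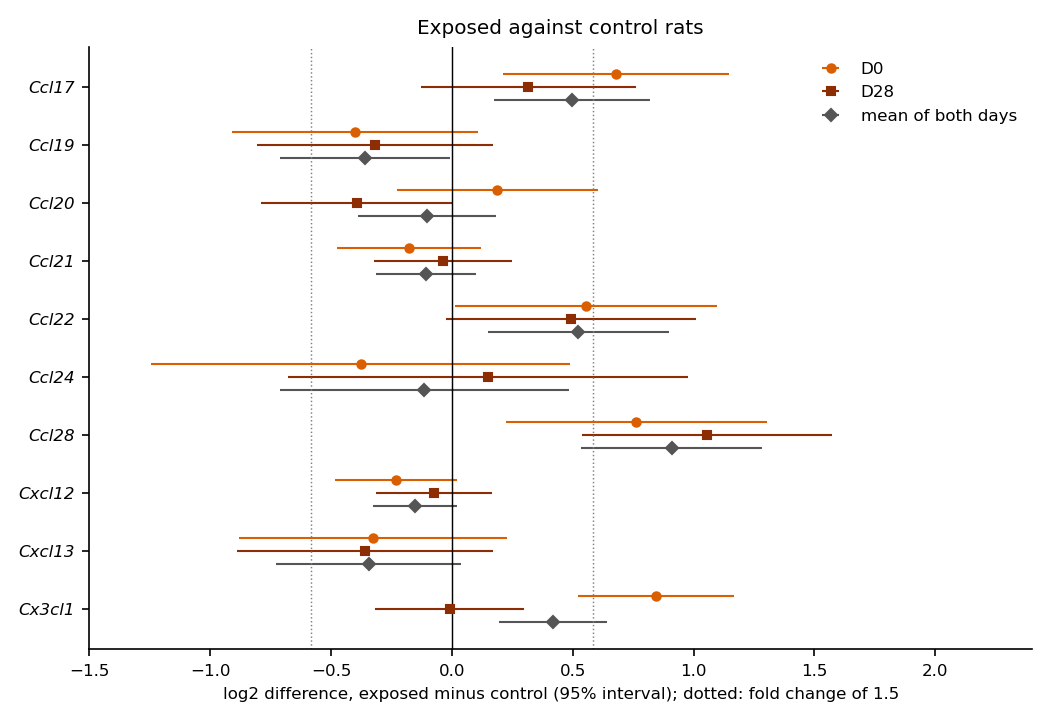
Log2 difference between exposed and control rats for each gene on D0 (circles), on D28 (squares) and as the mean of both days (diamonds), with 95% intervals; dotted lines mark an FC of 1.5. The intervals of Cx3cl1 on D0 and of Ccl28 on D28 lie above 0, as do those of Ccl17, Ccl22 and Ccl28 on D0, which were not called, and those of the lymphoid chemokines Ccl21 and Cxcl12 are narrow and include 0 on both days. For the mean of both days those of Ccl17, Ccl22, Ccl28 and Cx3cl1 lie above 0. That of Ccl19 lies below 0 (-0.71 to -0.0069, limma adjusted p = 0.278), and only Ccl28 was called.

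The genes of the Ccr4 ligands Ccl17 and Ccl22 lie on chromosome 19 on either side of Cx3cl1. The probes of these genes span 56.3 kb (chr19:10641376-10697682, rn4). On D0 each of the 3 genes had a positive difference, as did 49.9% of all genes, and only Cx3cl1 was called. Over the arrays r was 0.14 for Ccl17 and Ccl22, 0.42 for Ccl17 and Cx3cl1 and 0.49 for Ccl22 and Cx3cl1. With the group means taken out r was -0.26, 0.07 and 0.51. Ccl17 signals in exposed rats on D0 were 7.84, 8.75, 8.54, 8.49 and 8.02, and the controls ran from 7.17 over 7.65 to 8.15, so that 3 of 5 exposed arrays lay above all controls. The difference was 0.68 (95% interval 0.21 to 1.15, adjusted p = 0.132). It was positive within all 4 slides that held both groups (0.34 to 1.36) and was called with the slide as a random block and with array quality weights. On D28 exposed rats ran from 7.67 over 7.96 to 8.69 and controls from 7.42 over 7.73 to 8.17, with a difference of 0.32 (95% interval -0.13 to 0.76, adjusted p = 0.670). As the mean of both days the Ccl17 difference was 0.50 (95% interval 0.17 to 0.82, adjusted p = 0.0603).

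Ccl22 was read by 3 probes, and their differences on D28 were unequal. A pair of probes has the same sequence, and their signals had r = 0.91 over the 23 arrays. The third probe ends in a run of A and followed the pair with r = 0.67 and 0.56. On D0 the pair differed by 0.65 and 0.58 and the third probe by 0.43, none of them called. On D28 the pair differed by 0.69 and 0.74, and the third probe by 0.047, again none of them called. With each probe fitted on its own by limma, adjusted p on D28 was 0.220 and 0.0962 for the pair and 0.990 for the third probe. As the mean of both days both probes of the pair were past the thresholds when all 40357 probes were fitted on their own, at 0.67 (adjusted p = 0.0186) and 0.66 (adjusted p = 0.00731), where 1.51% of probes were called, and the third probe was not (0.24, adjusted p = 0.832). On the second probe of the pair all 6 exposed arrays of D28 lay above all 6 controls (7.06 to 7.76 against 5.86 to 6.93). On the first probe, of the same sequence, 4 did (6.66 to 7.66 against 5.56 to 6.92). On the third probe none did (10.46 to 11.40 against 8.89 to 12.28). Among all genes, each with its probes averaged, 0.682% had all exposed arrays of D28 above the controls. For Ccl22 averaged in this way 2 of 6 exposed arrays lay above all controls. The share over single probes was not computed.

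**Figure D4:**
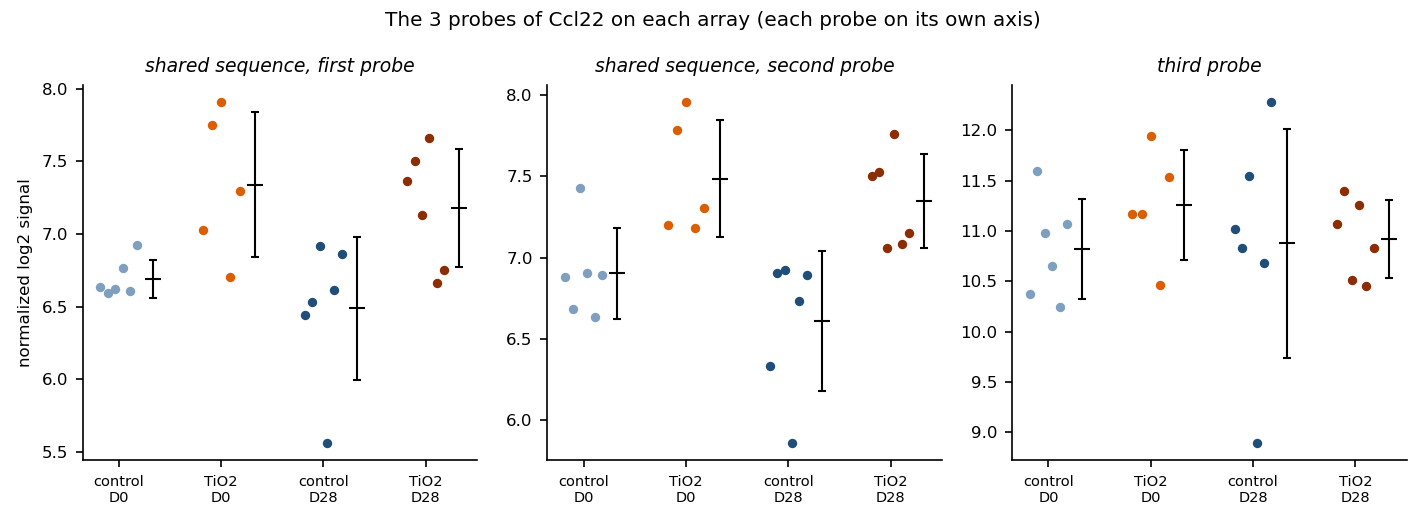
Normalized log2 signal on each array of the 3 probes of Ccl22 in the 4 groups, with the mean and SD of the group in black; each probe has its own vertical axis. The probes that share a sequence have higher means in exposed rats on both days, and the control arrays of D28 on the third probe spread from 8.89 to 12.28.

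With the 3 probes averaged, as for every gene, Ccl22 signals in exposed rats on D0 were 8.46, 8.90, 9.27, 8.12 and 8.71 against controls from 7.83 over 8.20 to 8.34, and 4 of 5 exposed arrays lay above all controls. The difference was 0.55 (95% interval 0.01 to 1.097, adjusted p = 0.398). On D28 exposed rats ran from 8.07 over 8.44 to 8.90 and controls from 6.77 over 8.05 to 8.68, a difference of 0.49 (adjusted p = 0.496). The lowest control, replicate 4, was the only array on its slide. Without it the D28 difference of Ccl22 was 0.25, that of the pair 0.50 and 0.59, and that of the third probe -0.35. Of the spread of Ccl22 around its group means 75.1% lay between slides, against a median of 38.7% over all genes. With the slide as a fixed block the difference on D0 was 0.49 (adjusted p = 0.0253), below the FC limit. As the mean of both days the Ccl22 difference was 0.52 (95% interval 0.15 to 0.90, limma adjusted p = 0.0943), not called.

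Ccl24 (eotaxin-2) differed more between slides than between groups. On slides 3 and 4 its signals ran from 7.10 to 7.97 on 12 arrays of all 4 groups, and on slides 1, 2 and 5 from 5.78 to 6.65 on the other 11. Of the spread around the group means 90.4% lay between slides, a share that 0.239% of all genes reached. The genes that followed Ccl24 most closely over the arrays were Olr1349 (r = 0.97), Epgn (0.96) and Olr1415 (0.95), of which the first and last are named as olfactory receptors. Exposed rats on D0 had 5.98, 7.10, 5.78, 7.74 and 7.18, within or below the range of controls (6.32 to 7.76). The differences were -0.38 on D0 (95% interval -1.24 to 0.49) and 0.15 on D28 (-0.68 to 0.98), ratios of 0.42 to 1.40 and of 0.63 to 1.97. Within slides that held both groups they ran from -0.54 to 0.04 on D0 and from -0.14 to 0.15 on D28.

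Its receptor Ccr3, which marks eosinophils, differed by -0.50 on D0 (adjusted p = 0.296) and by -0.02 on D28. Of 6 eosinophil genes the peroxidase Epx and the receptor Il5ra were well above background on 0 arrays, and the granule protein gene Prg2, Ccr3, Cebpe and Siglec5 on all 23. Of the 5 eosinophil markers tested 1 had a positive difference on D0 and 2 on D28, with medians of -0.38 and -0.02. None was called by limma, with an unadjusted p below 0.05 for 2 on D0 and 0 on D28.

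Ccl20, the ligand of Ccr6, moved in opposite directions on the 2 days without passing the test on either. Its 2 probes are shifted by 1 base and differ at 1 position (G9A, counted from the 5′ end of the first probe), and their signals had r = 0.96. On D0 exposed rats had 9.39, 9.87, 9.73, 8.50 and 9.88 against controls from 9.03 over 9.29 to 9.49, so that 3 exposed arrays lay above and 1 below all controls. The difference was 0.19 (95% interval -0.23 to 0.60, adjusted p = 0.885). On D28 exposed rats ran from 8.70 over 8.99 to 9.61 and controls from 9.23 over 9.45 to 9.64, and 5 of 6 exposed arrays lay below all controls. There the difference was -0.39 (95% interval -0.79 to 0.000698, adjusted p = 0.456), and it was negative within all 3 slides with both groups (-0.44 to -0.25). The difference between the effects of the days was -0.58 (unadjusted p = 0.0467, adjusted p = 1.00). Among exposed rats Ccl20 was lower on D28 than on D0 by a difference of -0.44 (adjusted p = 0.635), and without replicate 4 of the exposed rats of D0, the array at 8.50, by -0.68 (adjusted p = 0.0495). This difference was called in only 1 of the 23 fits that left out 1 array, with adjusted p up to 0.915.

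The receptor genes of the mucosal pair, Ccr6 and Ccr10, were well above background on all arrays. Ccr6 differed by 0.14 on D0 and 0.09 on D28, and Ccr10 by 0.11 and 0.33, with adjusted p of 0.685 or more. Of the 11 genes of IL-17 and mucosal IgA, 8 had positive differences on each day, with medians of 0.31 and 0.10. By limma 1 of them was called higher on D0 and 0 on D28, and unadjusted p was below 0.05 for 4 and 0. Il17a and Il17f were well above background on 3 arrays and 1 array, and Il22 and Il22ra1 on none. All 6 plasma cell markers had positive differences on both days (medians of 0.20 and 0.23). None was past both thresholds by limma, and 1 had an unadjusted p below 0.05 on each day. Derl3 passed the adjusted p alone on D0 (0.49, adjusted p = 0.0320), below the FC limit.

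The homeostatic chemokines of lymphoid stroma were not called on either day. Ccl19 signals in exposed rats on D0 were 8.92, 9.56, 10.31, 9.56 and 8.98, and 4 of them lay below all controls, which were close together (9.72 to 9.99). The difference was -0.40 (95% interval -0.91 to 0.11, adjusted p = 0.626). On D28 exposed rats ran from 9.62 over 10.14 to 10.31 and controls from 9.26 over 10.61 to 10.85, a difference of -0.32 (adjusted p = 0.701). Without replicate 1 of the controls, the array at 9.26, it was -0.55 (adjusted p = 0.185).

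Cxcl13, the B cell attractant, had 5.30, 6.06, 6.18, 5.62 and 4.81 in exposed rats on D0 and 5.53 to 6.55 in controls, and its differences were -0.33 on D0 (95% interval -0.88 to 0.23) and -0.36 on D28 (-0.89 to 0.17). Ccl21 lay between 11.89 and 12.72 on all arrays, with differences of -0.18 on D0 (95% interval -0.48 to 0.12) and -0.04 on D28 (-0.32 to 0.25). Of its spread 76.7% lay between slides. For Ccl21 the intervals exclude an FC of 1.5 on both days, and for Ccl19 and Cxcl13 they do not.

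Cxcl12 was read by 3 probes of 2 transcripts, one of which matches rn4 over 2559 bases and so crosses a gap. All of them had negative differences on D0 (-0.26, -0.33 and -0.11), and their signals were only loosely related over the arrays (r between 0.33 and 0.47). The gene's signals in exposed rats on D0 were 9.40, 9.22, 9.503, 9.38 and 9.04, and 4 of them lay below all controls (9.40 to 9.74). The difference was -0.23 (95% interval -0.48 to 0.02, adjusted p = 0.493), negative within all 4 slides. On D28 it was -0.08 (95% interval -0.32 to 0.16, adjusted p = 0.902).

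Between the days Cxcl12 was higher on D28 in both arms, by 0.31 in controls (adjusted p = 0.238) and by 0.47 in exposed rats (95% interval 0.22 to 0.72, adjusted p = 0.119), where the 6 exposed arrays of D28 lay above all 5 of D0. That held for 0.669% of all genes, and 81 of 23029 (0.352%) were called in this contrast, none of the 10 genes among them. Unadjusted p was below 0.05 for 3 of the 10 genes in it (Ccl19, Ccl20 and Cxcl12), where it was for 7.70% of all genes. Ccl19 was higher on D28 by 0.55 in controls (adjusted p = 0.315) and by 0.63 in exposed rats (adjusted p = 0.5004), and without replicate 1 of the controls of D28 its difference in controls was 0.78 (adjusted p = 0.0412). The difference in controls was called in only 1 of the 23 fits that left out 1 array, with adjusted p up to 0.512. Over the arrays Cxcl12, Cxcl13 and Ccl19 varied together, with r of 0.79 for Cxcl12 and Cxcl13, 0.77 for Ccl19 and Cxcl13 and 0.73 for Ccl19 and Cxcl12. With the group means taken out these were 0.74, 0.65 and 0.49. Ccl21 did not vary with these 3 genes in this way. Its r was -0.20 with Cxcl12, -0.20 with Cxcl13 and -0.11 with Ccl19, and -0.49, -0.36 and -0.29 without the group means. Slides held 64.8% of the spread of Cxcl12 around its group means, 36.2% of that of Cxcl13 and 27.6% of that of Ccl19. The median over all genes was 38.7%.

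Markers of fibroblasts, the stroma that makes Cxcl12, differed between the days as well. Of 8 markers 3 were called higher on D28 in controls (Col1a1 by 1.60, Col3a1 by 1.29, Pdgfrb by 0.80), and the mean of the 8 ran from 10.16 to 10.50 on D0 and from 10.76 to 10.92 on D28. In exposed rats it ran from 9.66 to 10.31 and from 10.45 to 10.81, with 2 markers called. Between exposed and control rats 1 of the 8 had a positive difference on each day (medians of -0.11 and -0.25). Tcf21 was under-expressed on D0 (-0.66, adjusted p = 0.0193), and no other marker was called on either day. That call was kept in all 13 other settings and in 20 of 23 fits that left out 1 array (adjusted p up to 0.0660). The part of fibroblasts in the values of Cxcl12 and Ccl19 was not tested. The 10 B cell markers had a median difference of -0.16 on D0 and -0.02 on D28, the 10 T cell markers one of 0.03 and 0.11, and none of either list was called by limma. Unadjusted p was below 0.05 for 1 B cell marker on D28 and for 0 of the others on either day.

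Among the 8 receptors that the 10 chemokines signal through, none was called by limma on either day, and unadjusted p was below 0.05 for 2 of them on D0 (Ccr3 and Cxcr5) and 0 on D28. Of these 7 were well above background on 21 or more arrays, and Ccr4, the receptor of Ccl17 and Ccl22, was on none, so that its differences (0.44 and -0.02) are not read. Cxcr4, the receptor of Cxcl12, differed by 0.12 on D0 and 0.07 on D28, and Cxcr5, that of Cxcl13, by -0.36 (adjusted p = 0.342) and 0.02. Ccr7, that of Ccl19 and Ccl21, differed by 0.09 and 0.03.

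**Figure D5:**
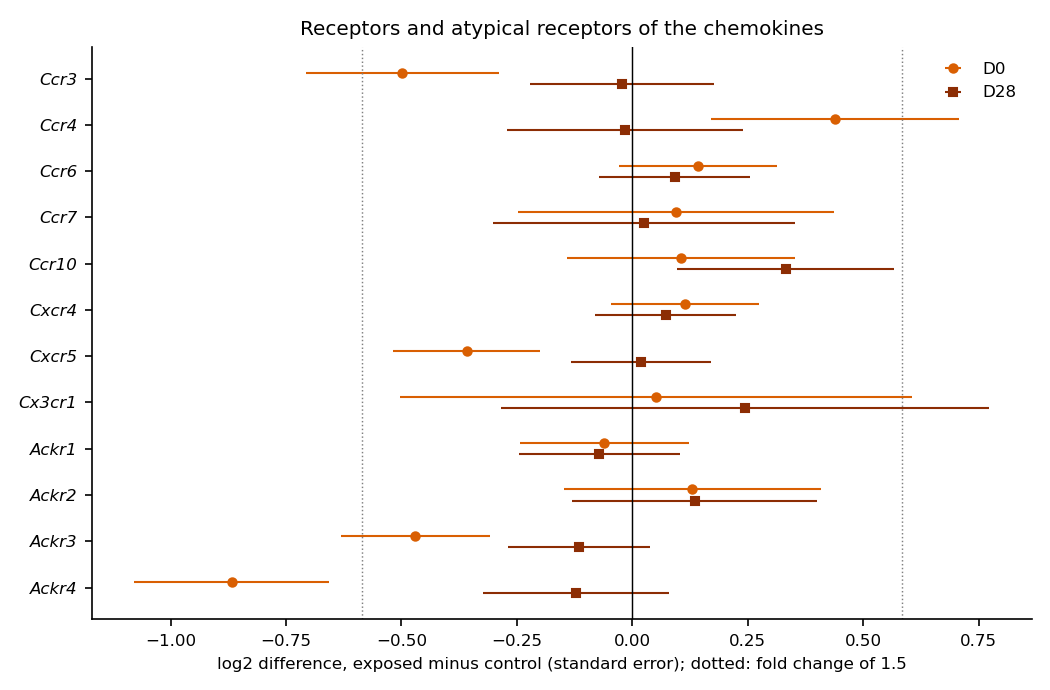
Log2 difference between exposed and control rats on D0 (circles) and D28 (squares), with standard errors, for the 8 receptors and the 4 atypical receptors of the chemokines; dotted lines mark an FC of 1.5. Ackr4 on D0, at -0.87, is the only value past both thresholds.

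The atypical receptors bind chemokines without signalling through G proteins, and take many of them up for degradation. Of the 4 genes 1 was under-expressed in exposed rats on D0: Ackr4, which removes Ccl19 and Ccl21, ran from 7.73 to 8.52 in exposed and from 8.50 to 9.11 in control rats. Its difference was -0.87 (standard error 0.21, adjusted p = 0.0259), called in all 13 other settings (-0.92 to -0.68) and in 16 of 23 fits that left out 1 array (adjusted p up to 0.0861), not without replicate 1, 3, 4 or 5 of the controls or replicate 3, 4 or 5 of the exposed rats of D0. The ranges touch, since the highest exposed array lay just above the lowest control. On D28 its difference was -0.12 (adjusted p = 0.911). Ackr3, which removes Cxcl12, differed by -0.47 on D0 (adjusted p = 0.153) and by -0.11 on D28, Ackr1 of venules by -0.06 and -0.07, and Ackr2, which removes Ccl17 and Ccl22, by 0.13 and 0.14. Dpp4, the peptidase that trims Cxcl12 and Ccl22, differed by -0.12 and 0.01.

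Genes upstream of these chemokines were largely not called. Of 9 genes of lymphotoxin and non-canonical NF-kB signalling, which act on lymphoid stroma, none was called by limma on either day (medians of 0.12 and 0.14), with an unadjusted p below 0.05 for 1 on each day. Of 16 genes of type 2 immunity 2 were called on D0, with a median over the list of -0.06: Retnla, a marker of macrophages activated by IL-4 and IL-13, was over-expressed by 3.25 (adjusted p = 6.85e-06) and Alox15, a lipoxygenase, was under-expressed (-1.03, adjusted p = 0.0214). The Alox15 call was kept in 18 of 23 fits that left out 1 array (adjusted p up to 0.0680), not without replicate 3 of the controls or replicate 1, 2, 3 or 5 of the exposed rats of D0, and in 12 of 13 other settings, with differences from -1.18 to -0.59. On D28 Retnla was the only call (2.64, adjusted p = 0.000104). By limma, unadjusted p was below 0.05 for 6 of the 16 genes on D0, where it was for 11.9% of all genes, and for 3 on D28. Crlf2 passed the adjusted p alone on D0 (0.28, adjusted p = 0.0498), below the FC limit. Il4 itself was well above background on 3 arrays and Il13 on 11. Of 7 dendritic cell markers tested 6 had positive differences on D0 and 1 was called, Clec9a (1.00, adjusted p = 0.0242). That call was kept in 19 of 23 fits that left out 1 array (adjusted p up to 0.0861), not without replicate 1 or 6 of the controls or replicate 1 or 4 of the exposed rats of D0, and in 10 of 13 other settings, with differences from 0.37 to 1.07. The mean of the 7 ran from 7.65 to 8.04 in exposed and from 7.53 to 7.74 in control rats on D0, and from 7.77 to 7.91 and from 7.60 to 7.88 on D28. Of 8 alveolar macrophage markers 7 had positive differences on D0 (median 0.31). None was past both thresholds by limma, and 3 had an unadjusted p below 0.05. Cd68 passed the adjusted p alone, below the FC limit, on D0 (0.55, adjusted p = 0.00293) and on D28 (0.42, adjusted p = 0.0294). The part of these cells in the values of Ccl17 and Ccl22 was not tested.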

How the data were processed

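The authors deposited the scanner output of each array, made with Agilent Feature Extraction 11.0.1.1 (22 arrays) or 12.0.1.1 (1 array), and a table of all arrays. Both hold intensities: the processed signal is background-corrected within the array, and the deposited table is quantile normalized between arrays (Spearman's correlation with the median signal of at least 0.99997). The 75th percentile of the processed signal was 1383 to 3470 per array, and 69.5 to 77.9% of spots were well above background.

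Here control spots were left out and outlier spots set missing. Probes whose log2 processed signal passed the 95th percentile of the 308 negative controls in 5 or more arrays were used (40417 of 45598). Arrays were quantile normalized, and spots and then probes of a gene averaged. A limma (version 3.58.1, R 4.3.3) model of 4 groups had 19 residual degrees of freedom, no batch term and 6 contrasts. On simulated arrays for D0 it called 68% and 58% of 50 genes each changed by 1 and -1. Groups followed the sample titles, because another label gives day 0 for exposed D28 rats. The 10 genes, the lists and the rule for named genes (all 10 with their receptors; of other lists those past both thresholds; the 3 genes most alike) were chosen with earlier results of these data known. Alternatives covered scaling, background, filters, probes, variance, weights, slide, replicate number, thresholds and leaving out each array. Fitting each probe on its own and naming Cd68, Derl3 and Crlf2 were chosen after seeing the data. Gene neighbours were looked up in RefSeq's table. The values of 1 further gene of the lists are not reported here.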

Additional observations from a re-analysis of the deposited data

Results flagged for a closer look

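In 40 groups, 10 genes in each of 4, an array that stood far from the rest was looked for by its gap to the next value relative to the range. That happens in about 1 in 20 groups by chance, and 2 were found, both for Ccl19. Among the controls of D28 replicate 1 was lowest at 9.26, with the next array at 10.40. Among the exposed rats of D28 replicate 5 was lowest at 9.62, with the next at 10.11. Both arrays were on slide 3.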

How the results depend on the processing

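No gene reversed its direction while called. The call of Cx3cl1 on D0 was kept under every alternative run. The number of the 10 genes called on D0 was 4 with array quality weights (Ccl17, Ccl22 and Ccl28 added), 2 with the slide as a random block, 3 with an unadjusted p, and 1 in each fit that left out 1 array. On D28 it was 0 in place of 1 with 75th percentile scaling, cyclic loess, normexp, the deposited table, arrays of the day only, array quality weights and the slide as a fixed block, and 0 to 1 on leaving out 1 array. For the mean of both days it was 0 with normexp and the deposited table, 2 with no FC limit, and 1 to 2 on leaving out 1 array. For controls of D28 against D0 it was 0 with the slide as a fixed or random block and 0 to 2 on leaving out 1 array. For the difference of the effects and for exposed rats between days it was 1 with an unadjusted p and 0 to 1 on leaving out 1 array.

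The number of all genes called on D0 moved from 412 to 225 with normexp, 659 with no FC limit and 946 with an unadjusted p, and was 315 to 439 on leaving out 1 array. On D28 it moved from 174 to 97 with normexp, 42 with the arrays of the day only, 263 with the slide as a random block, 303 with no FC limit and 664 with an unadjusted p, and was 111 to 203 on leaving out 1 array. The difference of the effects gave 14 with normexp and with the slide as a random block, 12 with a trend and robust variance and 461 with an unadjusted p in place of 7, and 6 to 11 on leaving out 1 array. The mean of both days gave 150 with normexp, 190 with the deposited table, 1509 with no FC limit and 654 with an unadjusted p in place of 430, and 392 to 437 on leaving out 1 array. Controls between days gave 763 with an unadjusted p in place of 140, and 87 to 199 on leaving out 1 array. Exposed rats between days gave 128 and 130 with the slide as a fixed and random block and 567 with an unadjusted p in place of 81, and 56 to 89 on leaving out 1 array. Why these moved was not tested.

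Same-numbered arrays do not share an animal, and of 33 such pairs 12 had deviations with r over 0.1 (-0.30 to 0.46), so the numbers were not taken as a pairing. With the replicate block 356 genes were called on D0 and 138 on D28, Cx3cl1 on D0 was kept, and the number of the 10 genes was 0 on D28 and 0 for controls between days.

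Limits: near background, as for Ccl28, values depend on the background correction. The arrays hold 1 rat each from 1 strain and sex, and cell types were not separated.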
